A study of Homo sapiens with 12 samples.

Results

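The insulin-like growth factor (IGF) binding proteins and the IGF1 receptor were followed across 12 mRNA libraries of NT2/D1, a pluripotent human embryonal carcinoma line. The members are IGFBP1 to IGFBP7 and IGF1R, taken by symbol from the deposited table of raw counts, and all 8 were found among its 56638 genes. Of these, 7 had enough counts to be tested and IGFBP1 did not. The 4 groups hold 3 libraries each: CRISPR/Cas9 control cells and cells whose PRMT6 gene, for a protein arginine methyltransferase, was deleted by CRISPR/Cas9, each untreated and after 3 days with 1 µM all-trans retinoic acid (ATRA), which drives NT2/D1 cells to differentiate. The labels name a single knockout line, so the effect of the deletion cannot be told apart from that of this line's derivation. Whether the 3 libraries of a group stem from separate cultures is not labelled, so p-values measure the spread between libraries, which may be technical.

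IGF1 and IGF2 are secreted growth factors that signal through IGF1R, a receptor tyrosine kinase that acts on the PI3K-AKT and RAS-ERK pathways. IGFBP1 to IGFBP6 bind both ligands with high affinity in the extracellular space, where they can carry them, withhold them from the receptor, or release them after cleavage by proteases. IGFBP7 shares the amino-terminal domain but binds IGFs weakly and is often classed as a related protein. Embryonal carcinoma and other pluripotent cells depend on insulin or IGF signals for growth, and several IGFBPs are also products of mesenchymal cells.

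Libraries held 25469881 to 60394918 counts, at which 3 counts in a library equal 0.0433 to 0.128 CPM (the usual depth-normalised count, on library sizes scaled by the trimmed mean of M-values, TMM). PRMT6 stood at 1.94 to 29.9 CPM in the control libraries and at no more than 0.0587 CPM in the knockout libraries. The library labelled control ATRA 2 showed little retinoid response, and whether it was given ATRA cannot be told here. CYP26A1, the retinoic-acid-degrading enzyme that ATRA induces, stood at 0.052 CPM there, against 256 and 12.4 CPM in control ATRA 1 and 3. The summed level of 10 retinoid response genes was 1020 CPM in control ATRA 2, against 3780 and 6050 CPM in control ATRA 1 and 3. That is still above the 517 to 864 CPM of the untreated control. Knockout ATRA 1 and 3 were near-identical (chi-square of 1.91 per gene, against up to 416 within a group), as were knockout untreated 1 and 2 (9.01), and knockout untreated 3 and knockout ATRA 2 stood apart from them. The untreated control was itself spread, at 416 between replicates 1 and 2, 333 between 2 and 3 and 205 between 1 and 3. Control untreated 1 differed less from knockout untreated 3 (162), on a measure that also rises with depth. PRMT6 stood at 22.4, 1.94 and 8.94 CPM in control untreated 1 to 3. Pluripotency markers were present in every group (summed CPM of 12 genes 1570 to 5720), POU5F1 among them.

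Upstream sequence is shown for 3 members whose change with genotype the results turn on: IGFBP3 and IGFBP5, which were higher together in the untreated knockout, and IGFBP4, which was lower in the knockout with ATRA. Each is the 250 bases before the transcription start, 5′ to 3′ on the gene's strand, from RefSeq on GRCh38.p14: chr7:45921273-45921522 (minus strand), chr2:216695550-216695799 (minus strand) and chr17:40443200-40443449 (plus strand). Capitals mark matches on either strand to 3 motifs. The TATA box was searched as TATAAA. The GC box was searched as GGGCGG. The half-site of retinoid and related nuclear receptors was searched as AGGTCA. No match shown overlaps another.
IGFBP3: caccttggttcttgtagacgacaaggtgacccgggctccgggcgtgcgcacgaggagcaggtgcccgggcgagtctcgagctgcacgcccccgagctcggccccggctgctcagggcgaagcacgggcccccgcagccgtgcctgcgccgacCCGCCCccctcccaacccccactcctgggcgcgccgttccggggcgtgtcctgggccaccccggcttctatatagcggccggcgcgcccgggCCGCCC
IGFBP5: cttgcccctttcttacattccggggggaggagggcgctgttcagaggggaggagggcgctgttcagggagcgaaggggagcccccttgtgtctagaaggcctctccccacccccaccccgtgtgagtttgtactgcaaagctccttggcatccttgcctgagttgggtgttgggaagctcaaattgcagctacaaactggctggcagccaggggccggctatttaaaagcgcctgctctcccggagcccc
IGFBP4: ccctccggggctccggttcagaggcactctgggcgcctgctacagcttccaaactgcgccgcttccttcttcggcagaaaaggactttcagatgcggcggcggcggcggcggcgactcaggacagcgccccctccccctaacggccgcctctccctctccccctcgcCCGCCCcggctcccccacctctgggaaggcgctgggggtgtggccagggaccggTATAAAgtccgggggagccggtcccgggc
Of all 35114 RefSeq promoters of this length, 10.7% held the TATA box, 42.6% the GC box and 12.1% the half-site. IGFBP3 had 2 GC box matches, IGFBP4 had 1 and a TATA box match, 29 bases before the start, and IGFBP5 had no exact match to the 3 motifs. Only these exact letters were searched, so variant forms, such as TATA-like stretches in IGFBP3 and IGFBP5, are not marked. GC content was 76% for IGFBP3, 61.2% for IGFBP5 and 71.6% for IGFBP4, against a median of 58% over all promoters. Promoters were matched for 6 of the 8 members, all except IGFBP1 and IGFBP7. On this assembly IGFBP1 and IGFBP3 are neighbours on chromosome 7, and IGFBP2 and IGFBP5 on chromosome 2, with 0 protein-coding genes between the members of each pair, while IGFBP4, IGFBP6, IGFBP7 and IGF1R lie alone on chromosomes 17, 12, 4 and 15.

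In untreated control cells IGFBP2 and IGFBP4 were the main IGFBP transcripts. On the scale of CPM per kilobase of gene length, which allows genes to be compared, IGFBP2 stood at 65.1 ± 29.2 and IGFBP4 at 58.2 ± 4.81 (mean ± SD, n = 3), and their libraries overlapped. IGFBP7 followed at 24.0 ± 9.48 CPM per kb, below every IGFBP4 library. IGF1R (9.25 ± 4.52), IGFBP6 (5.08 ± 3.01) and IGFBP5 (3.59 ± 2.29 CPM per kb) came next, each overlapping its neighbour in this order. IGFBP3 was lowest of the tested members, at 1.16 ± 0.0741 CPM per kb, under every library of the others.

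The untreated knockout had another order. IGFBP7 (115 ± 36.4), IGFBP2 (114 ± 47.7) and IGFBP5 (105 ± 72.7 CPM per kb) were highest and overlapped one another. IGFBP4 (66.6 ± 4.64 CPM per kb) lay within the range of IGFBP2 and IGFBP5 and below every IGFBP7 library. IGFBP3 stood at 35.3 ± 11.8 CPM per kb, below every IGFBP4 library and above all libraries of IGF1R (18.8 ± 3.22), which in turn lay above those of IGFBP6 (9.96 ± 4.37 CPM per kb). The summed level of the 7 IGFBPs was 157 ± 24.8 CPM per kb in the untreated control, 446 ± 176 in the untreated knockout, 429 ± 131 in the control with ATRA and 486 ± 167 in the knockout with ATRA.

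The make-up of that sum also differed between genotypes. IGFBP3 made up 0.622% to 0.844% of it in the untreated control and 7.66% to 8.95% in the untreated knockout. With ATRA the IGFBP3 share was 0.165% to 2.03% in the control and 10.2% to 10.5% in the knockout, so knockout untreated 3 and knockout ATRA 2 kept shares like those of the other knockout libraries. IGFBP5 made up 0.977% to 3.87% in the untreated control and 8.77% to 28.3% in the untreated knockout, with 8.77% in knockout untreated 3 and 9.76% in knockout ATRA 2. IGFBP2 took 27.4% to 52.2% of the sum in the untreated control and 24.5% to 27.0% in the untreated knockout. IGFBP4 took 33.1% to 45.5% and 12.5% to 25.2%. These shares sum to a fixed total, so a rise of one lowers the others, and no test was made on them.

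**Figure D1:**
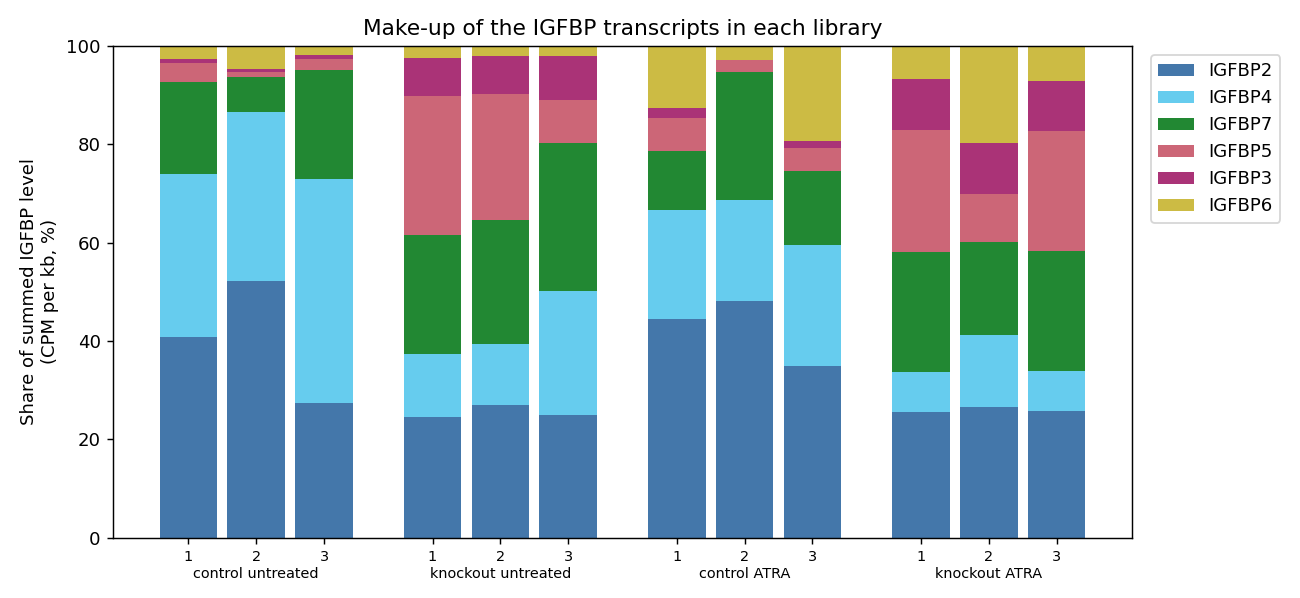
Share of each IGFBP (y axis, percent of the summed CPM per kb of the 7 IGFBPs) in each of the 12 libraries (x axis, replicate and group). IGFBP1, at most 0.0203% in any library, is not drawn. IGFBP3 and IGFBP5 take larger shares in all 6 knockout libraries than in the 6 control libraries, and IGFBP5 takes less in knockout untreated 3 and knockout ATRA 2 than in the other knockout libraries.

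In untreated cells the knockout had higher IGFBP3, IGFBP5, IGFBP7 and IGF1R than the control, with no member called lower. That is 4 of 7 tested members higher, where 13% of the 19130 genes tested were called higher and 21.9% lower (edgeR's quasi-likelihood test, adjusted p under 0.05 by Benjamini-Hochberg over all genes tested). The median log2 fold change was 1.02 over the members and -0.11 over all genes. The members were chosen with results of these data known, so the count is a description.

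IGFBP3, the main IGF carrier of serum, stood at 5.55, 5.02 and 4.95 CPM in the untreated control and at 184, 192 and 97.0 CPM in the untreated knockout, in the order of replicates 1 to 3. The groups did not overlap, and knockout untreated 3 was the lowest knockout library while still far above the control. The fitted change was 30.5-fold (log2 4.93 ± 0.82 SE, edgeR adjusted p = 0.00304).

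IGFBP5, which also binds the extracellular matrix, stood at 39.7, 11.4 and 18.2 CPM in the control and at 973, 920 and 137 CPM in the knockout. The groups did not overlap, and knockout untreated 3 was the lowest knockout library by a wide margin. The fitted change was 29.3-fold (log2 4.87 ± 0.91 SE, edgeR adjusted p = 0.00434). Over 23 other settings its log2 value lay between 4.52, without knockout untreated 1 (edgeR adjusted p = 0.0202), and 5.52, without control untreated 1 (edgeR adjusted p = 0.00335).

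IGFBP7, the low-affinity relative, stood at 57.4, 25.2 and 56.4 CPM in the control and at 249, 274 and 141 CPM in the knockout, again with no overlap and with knockout untreated 3 lowest. It was 4.78-fold higher (log2 2.26 ± 0.41 SE, edgeR adjusted p = 0.00387). Its antisense gene IGFBP7-AS1 held 3 to 31 counts per library, 0.091% to 0.49% of the IGFBP7 count. IGFBP3, IGFBP5 and IGFBP7 were called in all 23 other settings tried, with edgeR, DESeq2 or limma-voom adjusted p no higher than 0.0408, 0.0415 and 0.042.

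IGF1R, the receptor, stood at 195, 81.1 and 99.0 CPM in the untreated control and at 282, 276 and 204 CPM in the untreated knockout. The highest control library, control untreated 1, reached just below the lowest knockout library. It was called 2.03-fold higher (log2 1.02 ± 0.29 SE, edgeR adjusted p = 0.0191), but the call was lost without control untreated 2 (adjusted p = 0.0517), control untreated 3 (0.0781), knockout untreated 1 (0.0637) or knockout untreated 2 (0.0671), and with the near-identical knockout libraries summed (edgeR adjusted p = 0.0944).

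The other members did not pass in untreated cells. IGFBP2, a binding protein abundant in embryonic tissue, stood at 310, 450 and 171 CPM in the control and 624, 722 and 288 CPM in the knockout (log2 0.81 ± 0.41 SE, edgeR adjusted p = 0.135). The overlap came from knockout untreated 3, and without it and knockout ATRA 2 the log2 value was 1.12 (edgeR adjusted p = 0.0499). IGFBP6, which prefers IGF2, stood at 5.66, 10.7 and 3.13 CPM against 16.1, 15.8 and 6.29 CPM (log2 0.97 ± 0.69 SE, edgeR adjusted p = 0.284). IGFBP4, an inhibitor of IGF action that is cleaved by the protease PAPPA, stood at 117, 137 and 132 against 151, 155 and 135 CPM, with log2 0.19 ± 0.25 SE (edgeR adjusted p = 0.556) and -0.03 after removal of each library's GC trend.

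IGFBP1, a binding protein of liver and decidua, had 12 counts in all 12 libraries together. That is 0.026 CPM, with an exact 95% Poisson interval of 0.013 to 0.046 CPM that covers counting error only. The groups held 3, 3, 4 and 2 counts, too few to compare.

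**Figure D2:**
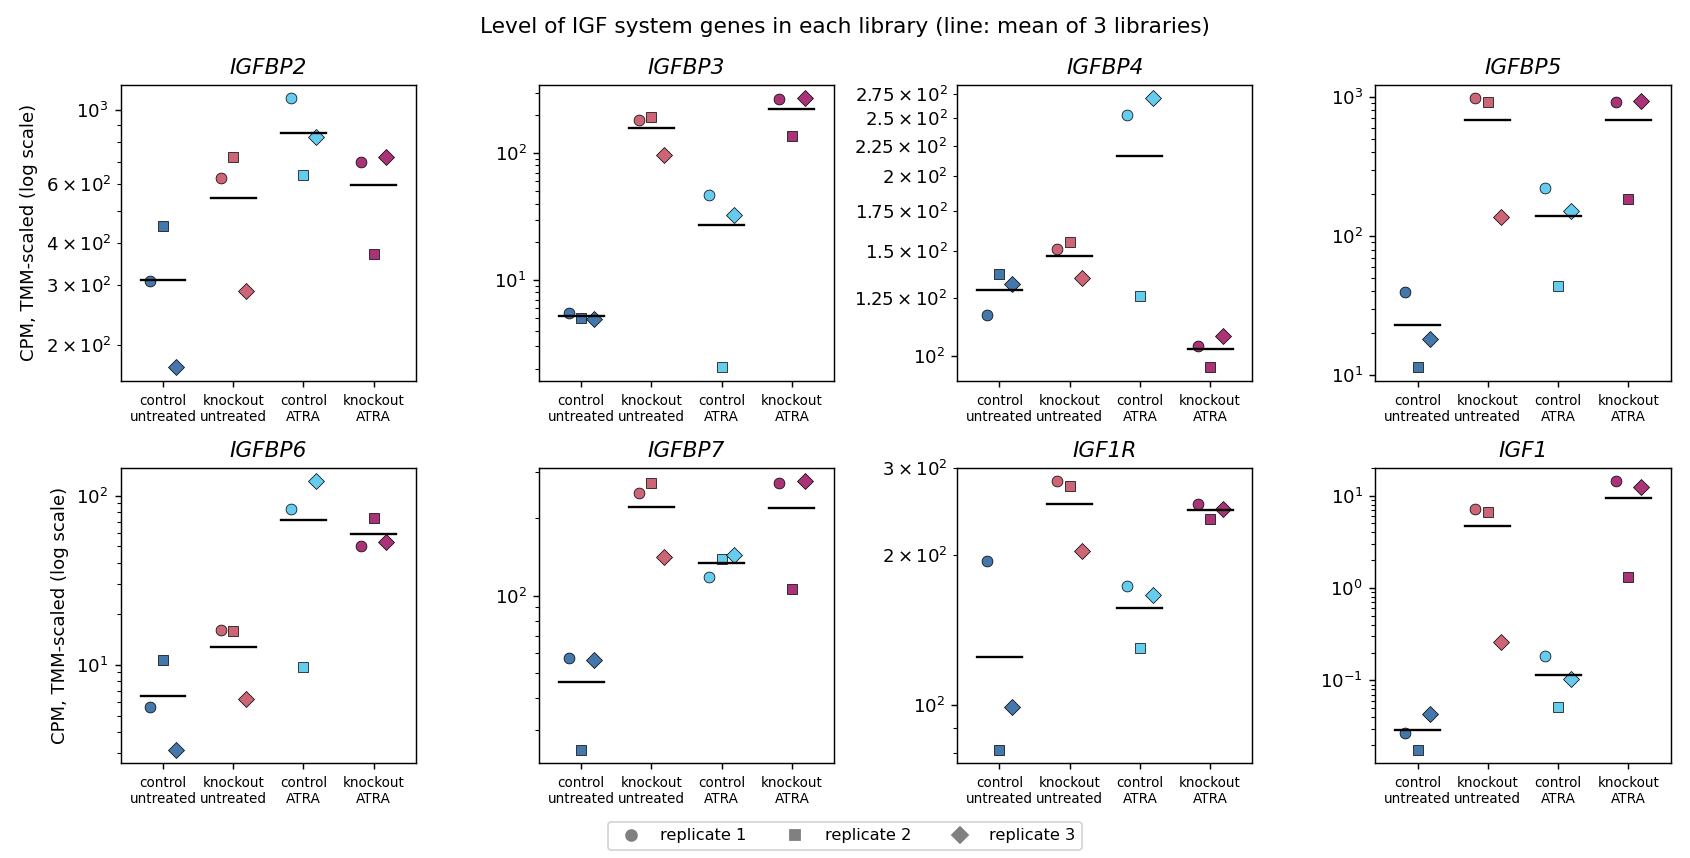
Level of the 7 tested members and of the ligand IGF1 (y axis, TMM-scaled CPM, log scale) in each library, by group (x axis), with the mean of 3 libraries as a line and the replicate number as the point's shape. IGFBP3 in the untreated control lies between 4.95 and 5.55 CPM and in the untreated knockout between 97.0 and 192 CPM, and the library labelled control ATRA 2 has the lowest IGFBP2 to IGFBP6 of its group.

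With ATRA, IGFBP3 was higher and IGFBP4 lower in the knockout than in the control. These were the 2 members called of 7, against 3.27% of all genes called higher and 4.24% lower in this comparison, with a median log2 fold change of 0.65 over the members and -0.06 over all genes. IGFBP3 stood at 46.5, 2.05 and 32.6 CPM in the control and at 266, 137 and 270 CPM in the knockout. Every knockout library was above every control library, with log2 3.05 ± 0.75 SE (edgeR adjusted p = 0.032). Without the library labelled control ATRA 2 it was called higher at 2.50 (edgeR adjusted p = 0.00661). The call was lost without knockout ATRA 1 (log2 2.91, adjusted p = 0.102), knockout ATRA 3 (2.90, 0.107), knockout untreated 1 (3.05, 0.0512) or knockout untreated 2 (3.05, 0.0511), and when knockout untreated 3 and knockout ATRA 2 were left out together (3.31, edgeR adjusted p = 0.0511). Fitting only the groups compared also ended it (3.05, edgeR adjusted p = 0.0928), as did summing the near-identical knockout libraries (2.91, edgeR adjusted p = 0.157), while limma-voom gave 3.90 (adjusted p = 0.0208). Without control ATRA 1 the value was 3.69 (edgeR adjusted p = 0.0371).

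IGFBP4 stood at 253, 126 and 270 CPM in the control with ATRA, against 104, 95.6 and 108 CPM in the ATRA-treated knockout. The groups did not overlap, and control ATRA 2 lay at the level of the untreated libraries. IGFBP4 was called lower (log2 -1.08 ± 0.25 SE, edgeR adjusted p = 0.0257). The call was lost on leaving out control ATRA 1 (log2 -0.95, adjusted p = 0.0675), control ATRA 3 (-0.86, 0.0558), knockout ATRA 1 (-1.09, 0.104), knockout ATRA 2 (-1.03, 0.071) or knockout ATRA 3 (-1.12, edgeR adjusted p = 0.101), in the fit of only the groups compared (-1.08, edgeR adjusted p = 0.0723) and with the near-identical knockout libraries summed (-1.10, edgeR adjusted p = 0.161). It was also lost with the replicate block (-1.05, edgeR adjusted p = 0.0509). Without control ATRA 2 it was -1.35 (edgeR adjusted p = 0.00279), and without knockout untreated 3 and knockout ATRA 2 it was -1.03 (edgeR adjusted p = 0.0881).

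IGFBP5 and IGFBP7 did not pass with ATRA in the edgeR fit of all libraries. IGFBP5 stood at 220, 44.1 and 152 CPM in the control and 918, 185 and 925 CPM in the knockout, with log2 2.28 ± 0.81 SE (edgeR adjusted p = 0.0951). Knockout ATRA 2 lay inside the control range, and without it and knockout untreated 3 the value was 2.73 (edgeR adjusted p = 0.0373). With all libraries it was called by DESeq2 (2.33, adjusted p = 0.0179) and by edgeR with no filter (2.27, adjusted p = 0.00449). IGFBP7 stood at 118, 139 and 144 against 272, 106 and 278 CPM, with log2 0.71 ± 0.39 SE (edgeR adjusted p = 0.259), and knockout ATRA 2 was the lowest of the 6 libraries. IGF1R stood at 173, 130 and 166 against 253, 237 and 248 CPM; the groups did not overlap, with log2 0.65 ± 0.29 SE (edgeR adjusted p = 0.163, and 0.0495 without control untreated 1). IGFBP2 and IGFBP6 overlapped between genotypes, with log2 -0.51 ± 0.41 and -0.28 ± 0.68 SE (edgeR adjusted p = 0.436 and 0.823). The IGFBP6 value was 0.37 without control ATRA 3 and 0.34 by limma-voom, so its sign was not settled.

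**Figure D3:**
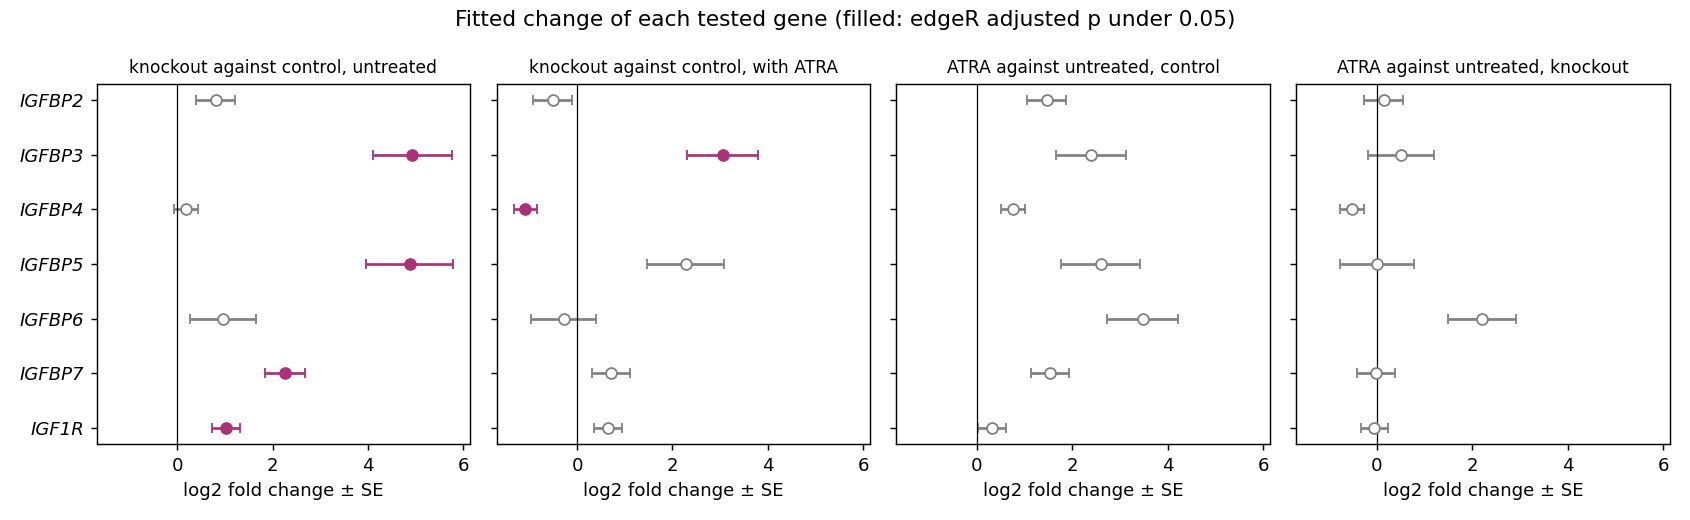
Fitted log2 fold change with its standard error (x axis) of the 7 tested members (y axis) in 4 comparisons, filled where the edgeR adjusted p is under 0.05. In untreated cells 4 members are filled and lie above 0, with ATRA IGFBP3 lies above and IGFBP4 below 0, and no member is filled in either ATRA comparison.

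In control cells given ATRA, no member passed with all libraries, although the fitted value of each of the 7 was above 0. Over all genes 0.0993% were called higher and 0.0157% lower. Of the 7 members 6 had an unadjusted p under 0.05, as did 3961 of the 19130 genes. Limma-voom called 0 members and 30 genes, and DESeq2 called 5 members and 8.55% of all genes. Log2 fold changes were 3.47 ± 0.75 SE for IGFBP6, 2.59 ± 0.82 for IGFBP5, 2.39 ± 0.74 for IGFBP3, 1.53 ± 0.40 for IGFBP7, 1.46 ± 0.41 for IGFBP2, 0.75 ± 0.25 for IGFBP4 and 0.32 ± 0.29 for IGF1R (edgeR adjusted p = 0.0603, 0.117, 0.11, 0.0793, 0.0922, 0.127 and 0.552). The median over the members was 1.53, against -0.04 over all genes.

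Without the library labelled control ATRA 2, whose retinoid genes stood near the untreated level, all 6 tested IGFBPs were called higher with ATRA and IGF1R was not. In that fit edgeR called 2419 of 19711 genes (12.3%), 1064 of them higher. The library was singled out for its own weak retinoid response, which favours finding a response without it. These calls are thus a description. Leaving out any single library other than control ATRA 2 or control untreated 1 gave 0 to 12 genes and no member. IGFBP6 had stood at 83.3, 9.69 and 122 CPM with ATRA against 5.66, 10.7 and 3.13 CPM untreated, so control ATRA 2 was at the untreated level. Its log2 value became 3.99 ± 0.51 SE (edgeR adjusted p = 0.00167). IGFBP3, at 2.05 CPM in control ATRA 2, was below even the untreated libraries there, and its value became 2.94 ± 0.35 SE (edgeR adjusted p = 0.00121). IGFBP4 became 1.03 ± 0.17 (edgeR adjusted p = 0.00517).

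IGFBP2 stood at 1080, 639 and 829 CPM with ATRA, above all untreated control libraries, and IGFBP7 at 118, 139 and 144 CPM, so both stood above the untreated range in control ATRA 2 as well. IGFBP5, at 44.1 CPM there, lay just above its highest untreated control library (39.7 CPM). Without control ATRA 2 the log2 values of IGFBP2 and IGFBP7 were 1.63 ± 0.44 and 1.51 ± 0.44 SE (edgeR adjusted p = 0.0373 and 0.0471), and that of IGFBP5 was 3.02 ± 0.81 (0.0354). Leaving out control untreated 1 instead gave calls for IGFBP6 (log2 3.39, adjusted p = 0.038), IGFBP7 (1.72, 0.038) and IGF1R (0.80, edgeR adjusted p = 0.0369) among 2457 genes called.

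**Figure D4:**
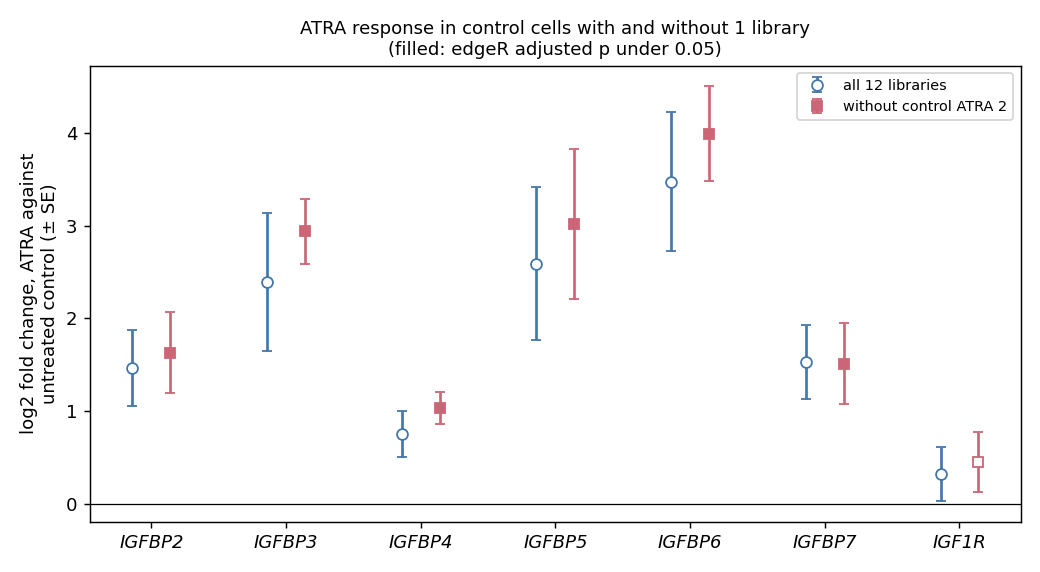
Log2 fold change with its standard error (y axis) of each tested member (x axis) for ATRA against untreated control cells, with all 12 libraries (circles) and without control ATRA 2 (squares), filled where the edgeR adjusted p is under 0.05. IGFBP6 moves from 3.47 to 3.99 and IGFBP3 from 2.39 to 2.94, and 6 of the 7 squares are filled. Control ATRA 2 was singled out for its own weak retinoid response.

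In knockout cells ATRA left most members near their untreated level. No member was called, and over all genes 0.0261% were called higher and 0.00523% lower. One member had an unadjusted p under 0.05, as did 2233 genes. Limma-voom called 0 members and 0 genes, and DESeq2 called 1 member, IGFBP6, and 2.9% of all genes. IGFBP6 stood at 50.3, 74.1 and 53.1 CPM with ATRA, above the 16.1, 15.8 and 6.29 CPM of the untreated knockout in every library (log2 2.21 ± 0.71 SE, edgeR adjusted p = 0.231). It was called by edgeR without control ATRA 2 (adjusted p = 0.048), with only the 2 knockout groups fitted (0.021) and with no filter (0.0142). IGFBP4, at 104, 95.6 and 108 CPM, was below all untreated knockout libraries (log2 -0.52 ± 0.25 SE, edgeR adjusted p = 0.444, and 0.03 when only the 2 knockout groups were fitted). IGFBP5 and IGFBP7 had log2 values of -0.00 ± 0.77 and -0.02 ± 0.39 SE, IGFBP3 0.51 ± 0.69, IGFBP2 0.14 ± 0.41 and IGF1R -0.05 ± 0.29.

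The ATRA response was not shown to differ between the genotypes for any member. The interaction was below 0 for all 7, from -0.37 ± 0.41 SE for IGF1R to -2.59 ± 1.11 for IGFBP5, with -1.88 ± 0.99 for IGFBP3 and -1.55 ± 0.56 for IGFBP7, and the edgeR adjusted p lay between 0.509 and 0.752. The median was -1.32 over the members and 0.04 over all genes, of which 9192 of 19130 lay below 0. Several members vary together over the same libraries, so their shared sign is a description. Over all genes 0% were called (0 of 19130), 1868 had an unadjusted p under 0.05, 4 members among them, and limma-voom called 0 and DESeq2 13, no member among these. IGFBP3 alone passed when control ATRA 2, knockout untreated 3 and knockout ATRA 2 were all left out (log2 -2.43, edgeR adjusted p = 0.0481).

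Of 5 tested ligands and other receptors, 2 were called higher and 1 lower in the untreated knockout (median log2 fold change -0.03), and 1 higher with ATRA, where 13% and 21.9% of all genes were called higher and lower untreated and 3.27% higher with ATRA. IGF1 is the 1 gene called with ATRA and 1 of the 2 called higher untreated, but its calls are not taken as support. It stood at 0.0267, 0.0176 and 0.0433 CPM in the untreated control (5 counts in all) and at 7.10, 6.64 and 0.257 CPM in the untreated knockout, lowest in knockout untreated 3. With ATRA it stood at 0.185, 0.052 and 0.104 CPM in the control and 14.4, 1.32 and 12.3 CPM in the knockout, lowest in knockout ATRA 2. The control libraries held 1 to 6 counts each, so IGF1 passed the count filter only through the knockout libraries, and its levels are given as a description with no fold or test. IGF2, the fetal ligand, stood at 3.26 to 9.96 CPM in the untreated control and 4.78 to 9.59 CPM in the untreated knockout (log2 -0.09 ± 0.44 SE, edgeR adjusted p = 0.888).

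IGF2R, which clears IGF2, was called 2.02-fold higher in the untreated knockout (log2 1.02 ± 0.34 SE, edgeR adjusted p = 0.0343), although control untreated 1 (258 CPM) overlapped knockout untreated 3 (250 CPM). The call was lost without control untreated 2 or 3 or knockout untreated 1 or 2 (edgeR adjusted p = 0.0908, 0.118, 0.103 and 0.0991). Over all 23 other settings it held in 16, and the edgeR, DESeq2 or limma-voom adjusted p reached 0.135. INSR, the insulin receptor, was lower, at 36.0 against 18.9 CPM (log2 -0.93 ± 0.25 SE, edgeR adjusted p = 0.0165), a call that ended on leaving out control untreated 3 (edgeR adjusted p = 0.0618), knockout untreated 2 (0.0504) or knockout untreated 3 (0.0619). The INSR call held in 17 of the 23 other settings, and the edgeR, DESeq2 or limma-voom adjusted p reached 0.0703 over all 23. The insulin-receptor-related INSRR averaged under 1 CPM in every group, and INS had no counts.

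Proteases that can cleave IGFBPs, the proteins that regulate them and the ternary complex subunit IGFALS formed a list of 12 genes, of which 7 were tested. In the untreated knockout 2 were called higher and 1 lower, with a median log2 fold change of 0.39, against 13% higher and 21.9% lower over all genes. ADAM12, a metalloprotease reported to cleave IGFBP3 and IGFBP5, stood at 0.327 ± 0.236 CPM in the control and 6.64 ± 4.6 CPM in the knockout (log2 4.37 ± 0.95 SE, edgeR adjusted p = 0.00697). Its untreated control libraries held only 21, 5 and 23 counts. The untreated knockout libraries stood at 9.28, 9.33 and 1.33 CPM, lowest in knockout untreated 3. HTRA1, a secreted serine protease, stood at 34.1 ± 16.4 and 142 ± 57.7 CPM (edgeR adjusted p = 0.00919), and with ATRA it was the only one called, at 25.2 ± 8 against 116 ± 56.7 CPM (edgeR adjusted p = 0.0219). That call was lost on leaving out control ATRA 1 or 2 or knockout ATRA 1 or 3 (edgeR adjusted p = 0.0545, 0.076, 0.088 and 0.0935). Over all 23 other settings it held in 18, and the edgeR, DESeq2 or limma-voom adjusted p reached 0.136. STC1, which restrains PAPPA, was lower in untreated cells at 7.10 ± 3.47 against 2.48 ± 0.721 CPM (edgeR adjusted p = 0.0108, and 0.0546 without knockout untreated 2).

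Of 11 genes whose proteins share the IGFBP domain, 8 were tested and 1 was called, the serine protease gene HTRA3. It was called higher in the knockout in both conditions. Over all genes 13% were called higher untreated, near this count of 1 of 8, and 3.27% with ATRA. HTRA3 stood at 20.7 ± 5.48 against 43.4 ± 3.25 CPM untreated and 19.4 ± 4.61 against 41.1 ± 1.79 CPM with ATRA (edgeR adjusted p = 0.00835 and 0.0236). The call with ATRA was lost without control ATRA 1 or 2 or any 1 of the 3 knockout ATRA libraries (edgeR adjusted p = 0.057 to 0.0888). Over all 23 other settings it held in 15, and the edgeR, DESeq2 or limma-voom adjusted p reached 0.14. The median log2 fold change of that list was 0.66 untreated, against -0.11 over all genes. The 3 genes for IGF2 mRNA binding proteins, which bind transcripts and not IGFs, had 1 called lower in untreated cells, IGF2BP3, at 119 ± 48.0 against 30.9 ± 7.37 CPM (edgeR adjusted p = 0.00612). Over all genes 21.9% were called lower untreated, so 1 of 3 describes a single gene and not the list.

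Downstream of the receptor, 29 of 30 listed genes were tested, with 5 called higher and 6 lower in the untreated knockout and a median log2 fold change of -0.01. These counts are near the shares over all genes, 13% higher and 21.9% lower, and the genes named next are single genes of the list. The kinase genes AKT2 (97.4 ± 13 against 180 ± 18.4 CPM) and AKT1 (133 ± 22.6 against 221 ± 12.7 CPM) were higher. The PI3-kinase subunit gene PIK3CB (38.3 ± 11.7 against 11.6 ± 1.45 CPM) and SOS1, the RAS exchange factor (25.6 ± 4.09 against 11.1 ± 0.753 CPM), were lower. Their edgeR adjusted p values were 0.00466, 0.00972, 0.00394 and 0.0116. With each library's GC trend removed, SOS1 had log2 -0.25 in place of -1.21 (edgeR adjusted p = 0.441) and AKT1 0.48 in place of 0.73 (edgeR adjusted p = 0.0679). With ATRA the adaptor gene SHC1 was called higher and SOS1 lower (edgeR adjusted p = 0.0385 and 0.0342). Leaving out a single library ended the SOS1 call for 7 of the 12 libraries and the SHC1 call for 7. With the near-identical knockout libraries summed, the untreated calls of ADAM12, HTRA1, STC1, HTRA3, AKT1 and SOS1 were lost (edgeR adjusted p = 0.0502 to 0.0756). No gene of these 5 lists was called in either ATRA comparison with all libraries.

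**Figure D5:**
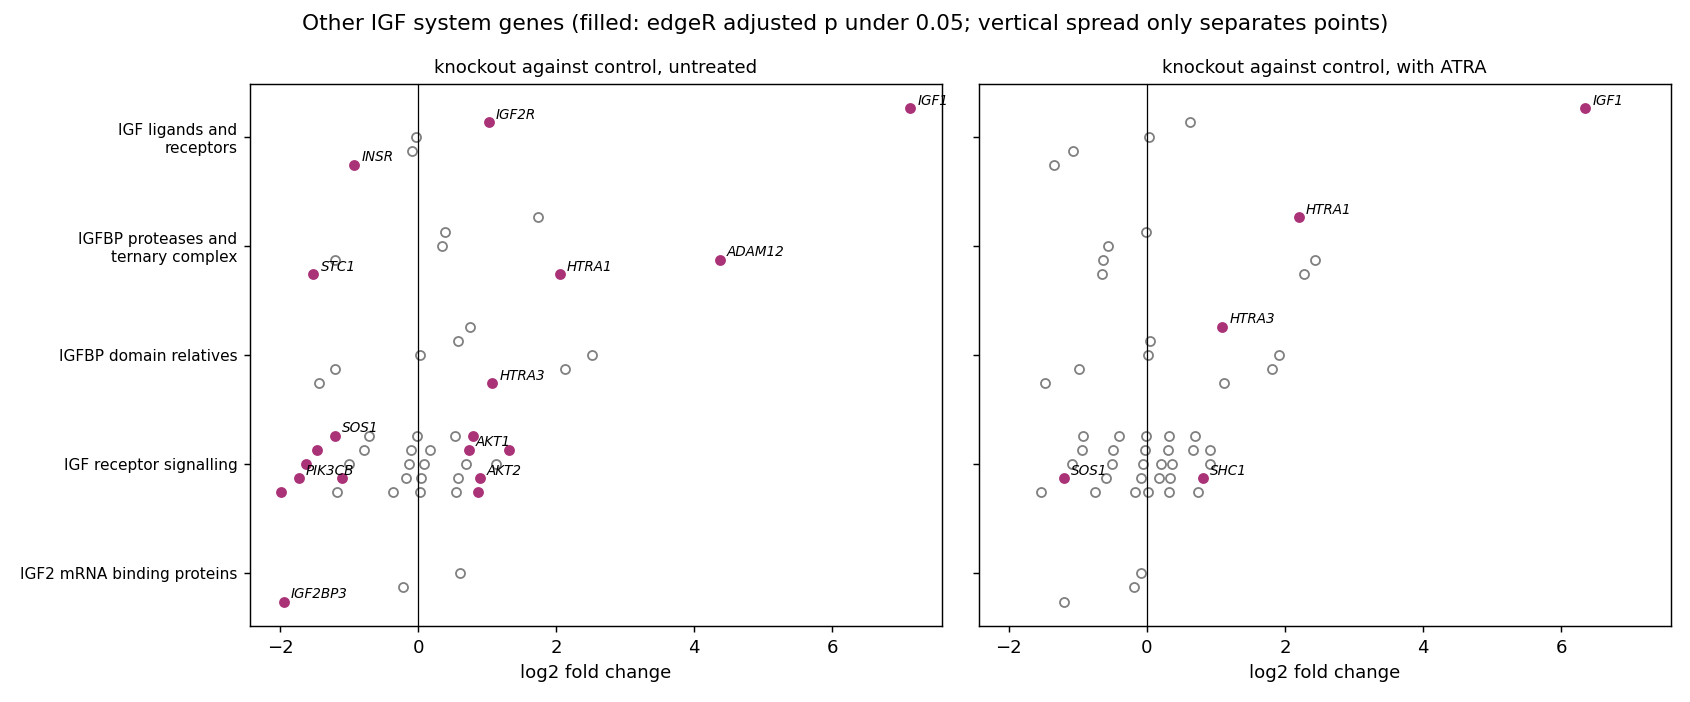
Log2 fold change (x axis) of the tested genes of 5 IGF system lists (rows) for knockout against control, untreated (left) and with ATRA (right). Points are filled where the edgeR adjusted p is under 0.05, and up to 4 called genes per list are named. The signalling genes lie on both sides of 0, and the position of IGF1 rests on 1 to 6 counts in each control library.

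Stromal markers mostly lay higher in the untreated knockout too, with 11 of 12 log2 fold changes above 0. Of 12 fibroblast and stromal markers, all tested, 6 were called higher and 1 lower in the untreated knockout and 3 higher with ATRA, against 13% higher and 21.9% lower over all genes untreated and 3.27% higher with ATRA. Their summed level was 1240 to 2100 CPM in the untreated control and 3970 to 15900 CPM in the untreated knockout, with COL3A1 at 10600, 10900 and 1320 CPM, lowest in knockout untreated 3. With ATRA the sums were 1350 to 3680 and 3470 to 14200 CPM, and DCN stood at 27.9, 0.264 and 26.4 CPM in the knockout, lowest in knockout ATRA 2. DCN stood at no more than 0.246 CPM in any control library, so it passed the count filter only through the knockout libraries. In the control 2 of the 12 markers averaged under 1 CPM untreated and 3 with ATRA, against 0 in the knockout groups. The counts of called stromal markers are thus a description. In these bulk libraries a larger share of cells of 1 type and more RNA per cell cannot be told apart, and the part of such cells in the IGFBP differences was not tested.

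The counts of the other marker lists stand against the same shares over all genes (with ATRA 4.24% lower). Endothelial markers (3 of 7 tested called lower in the untreated knockout, 2 with ATRA) summed to at most 126 CPM, and PECAM1 had no counts. Neuronal markers had 3 higher and 2 lower of 9 untreated, and 3 and 1 with ATRA. Hepatocyte and visceral endoderm markers summed to at most 17.1 CPM, with 1 of 5 called lower in untreated cells. Of 11 tested pluripotency markers 2 were lower in the untreated knockout and 1 with ATRA. Of 9 tested retinoid response genes 2 were higher in the untreated knockout and 1 lower with ATRA. GC content also moved with genotype: across 16377 genes, which are not independent, the rank correlation of relative expression with GC content was -0.377 to 0.091 in the control libraries and 0.118 to 0.477 in the knockout libraries. IGFBP4 and IGFBP6 are GC-rich (62.6% and 64.1%, above 92% and 94.9% of those genes), while IGFBP3, IGFBP5, IGFBP7 and IGF1R lie at 51.3% to 52.1%.

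The members fell into patterns across the 12 libraries. As a description, over libraries that share their group and make-up, log2 levels of IGFBP5 followed those of IGFBP7 (Pearson r = 0.93), IGFBP3 (0.92) and IGF1R (0.91). IGFBP2 was closest to IGFBP6 (0.74), while IGFBP4 had r between -0.15 and 0.48 with the other members. Among 11065 genes of at least 5 CPM, those closest to IGFBP3 were CADM4 and CLSTN2, both adhesion molecules (r = 0.988 each), and to IGFBP5 STK19 and GPR124 (0.978 each). IGFBP7 was closest to NCS1, a calcium sensor (0.978), and EFEMP2, a matrix protein (0.975), and IGF1R to UBXN1 (0.983).

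IGFBP6 was closest to C10orf54 (r = 0.946). IGFBP2 was closest to ADCK4 (0.900) and TSPAN4 (0.887), and IGFBP4 to PLEKHA6 (0.884) and PRRT4 (0.875). PLEKHA6 stood at 70.7 ± 49.7 CPM in the control with ATRA, against 16.0 ± 0.63 CPM in the ATRA-treated knockout. These groups overlapped, with 16.5 to 114 CPM in the control and 15.3 to 16.6 CPM in the knockout.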

How the data were processed

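Libraries were made from NT2/D1 RNA with a stranded TruSeq mRNA kit, per the labels' protocols. The authors deposited raw counts per gene, 1 column per library, with a gene length in bases. Per the submitters' processing notes, bcl2fastq, TopHat2, Subread, featureCounts and DESeq2 were used with hg19 and GRCh37. Versions, annotation release and strand setting: not given in the sources used here, so overlapping genes may share counts.

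All 12 columns matched 1 sample each. Genes were kept by edgeR's filterByExpr (minimum count 10), scaled by TMM and fitted with 1 coefficient per group over all libraries by edgeR 4.0.16 (quasi-likelihood F-test, R 4.3.3). The 5 contrasts were tested, with Benjamini-Hochberg adjustment over all genes tested. The common biological coefficient of variation was 0.367. Alternatives were DESeq2 1.42.0, limma-voom (limma 3.58.1), RLE scaling, 2 other filters, subsets of libraries, a replicate block and removal of GC trends (GENCODE v44 transcripts by symbol, 85.6% of genes tested); the fit without control ATRA 2, knockout untreated 3 and knockout ATRA 2 was added after seeing the data. The tests were checked on simulated counts. The members, the lists of ligands and receptors, proteases, IGFBP domain relatives, receptor signalling, IGF2 mRNA binding proteins, cell type markers, retinoid response genes and p53 targets, and the other settings were chosen with earlier results of these data known. Named genes are the members, the ligands and receptors, up to 4 called genes per IGF list and comparison, the 2 genes most correlated with each member of at least 5 CPM (log2 of CPM + 0.5), and up to 3 per marker list. A few genes chosen this way are left out of the text.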

Additional observations from a re-analysis of the deposited data

How the results depend on the processing

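Genes called over all genes, with all libraries, numbered 6676 for knockout against control untreated, 1437 with ATRA, 22 and 6 for ATRA in control and knockout, and 0 for the interaction; members called numbered 4, 2, 0, 0 and 0. In the same order, leaving out 1 library at a time gave 3058 to 8453, 219 to 2129, 0 to 2457, 0 to 181 and 0 to 135 genes, and 3 to 4, 0 to 3, 0 to 6, 0 to 1 and 0 members. DESeq2 called 2964 genes with ATRA, 1636 and 554 for ATRA (5 and 1 members) and 13 for the interaction. With no filter the counts were 2317, 1407 and 272 (5 and 1 members) and 8. Limma-voom called 0 for ATRA in the knockout. Fitting only the groups compared gave 768 with ATRA (0 members), and 0 and 1336 for ATRA (2 members in the knockout). With the near-identical knockout libraries summed, 1072 and 71 remained by genotype (0 members with ATRA), and 0 and 0 by ATRA. Without knockout untreated 3 and knockout ATRA 2 there were 881 with ATRA (1 member), and 3 and 0 by ATRA. Leaving out control ATRA 2 as well, which was added after seeing the data, gave 794, then 2147 (6 members) and 0 by ATRA, and 8 with 1 member for the interaction. Removing GC trends gave 3263 untreated and 11 for ATRA in control; it moved the median log2 fold change of all genes, untreated, from -0.11 to 0.03 and the calls from 2480 higher and 4196 lower to 1703 and 1560. The cause of these shifts was not tested.

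Replicate numbers did not pair the libraries: same-number deviations correlated from -0.68 to 0.64, over 0.1 in 5 of 18 pairs, and 4 of 12 libraries matched best with their own number. The replicate block gave 761 genes with ATRA (1 member, IGFBP3), and 4 and 0 by ATRA; untreated it called the 4 members called without it. No called member changed direction in any setting. Levels of members moved by 0.955 to 1.04 times under RLE, 0.917 to 1.15 times under total-count scaling and 0.856 to 1.25 times with GC trends removed. Depth limits IGFBP1, with 12 counts in all.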

Other observations

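Of 12 tested p53 targets 7 were called higher and 1 lower in the untreated knockout, and 7 higher with ATRA, none lower, where 13% and 21.9% of all genes were called higher and lower untreated and 3.27% and 4.24% with ATRA. CDKN1A, which encodes the cell-cycle inhibitor p21, stood at 38.5, 32.5 and 56.5 CPM in the untreated control and 595, 648 and 404 CPM in the untreated knockout (edgeR adjusted p = 0.000167). GDF15, a secreted stress cytokine, stood at 4.83, 2.31 and 3.76 CPM in the control with ATRA, against 31.5, 27.8 and 30.7 CPM with ATRA in the knockout (edgeR adjusted p = 0.0113, and 0.0817 with the near-identical knockout libraries summed). Its call in untreated cells ended on leaving out a single library for 7 of the 12 libraries. Over all 23 other settings that call held in 12, and the edgeR, DESeq2 or limma-voom adjusted p reached 0.147. The summed level of the list lay between 1150 and 1410 CPM in the untreated knockout, knockout untreated 3 included, and between 404 and 455 CPM in the untreated control.

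Within the knockout with ATRA, knockout ATRA 2 differed from its 2 near-identical companions in CYP26A1, which stood at 12.7, 1020 and 11 CPM in replicates 1 to 3. IGFBP6 stood at 50.3, 74.1 and 53.1 CPM in the same libraries, and IGFBP5 at 918, 185 and 925 CPM.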
